A study of Mus musculus with 12 samples.

Results

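The genes described here are 10 mouse genes that carry iron into, through and out of a cell: Tfrc, Slc11a1 and Slc11a2 (uptake), Fth1, Ftl1 and Ncoa4 (storage and its release), Slc40a1 (export), Hmox1 (release from heme), and Aco1 and Ireb2 (control). They were chosen by symbol from the 36047 genes of a table of normalized counts, and all 10 were present. The RNA came from eosinophils of the proximal small intestine (SI), sorted from the lamina propria as live CD45+ CD11b+ SiglecF+ MHCII− Ly6G− cells. All libraries were from untreated wild-type C57BL/6J mice on standard chow, labelled female, and each library pooled the cells of 2 mice. The cells were split by surface α4β7, an integrin used in homing to the gut, and CD22, a lectin, into α4β7+, α4β7− CD22− and CD22+ subsets, with 4 libraries each. In the study these subsets stand approximately for younger, intermediate and older eosinophils, so the comparisons ask how iron genes differ over the time that eosinophils spend in the SI. The subsets are gates on surface protein at a single sampling, and no cell was followed from 1 subset to the next.

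Cells take up transferrin-bound iron through the transferrin receptor, move it out of endosomes with divalent metal transporters, and store what they do not use inside a shell of ferritin heavy and light chains. Ferroportin is the exporter. Macrophages of many tissues recover iron from heme with heme oxygenase, and duodenal enterocytes absorb dietary iron, whereas eosinophils are not usually described as cells of iron traffic. Much of the system is controlled at the mRNA: when iron is scarce, the iron regulatory proteins bind a short hairpin, the iron-responsive element, which blocks translation when it lies in the 5′ untranslated region and protects the transcript from decay when it lies in the 3′ untranslated region. An mRNA level therefore does not give the protein level of the genes that carry a 5′ hairpin.

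Because this hairpin divides the 10 genes by how their mRNA level is to be read, its sequences are shown first. The transcripts were searched on their own strand for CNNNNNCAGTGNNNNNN, in which the 5 bases on each side of the loop had to pair, G with U allowed. A match was found in the 5′ untranslated region of Fth1, Ftl1 and Slc40a1 and in the 3′ untranslated region of Tfrc, and in none of the coding regions of the 10 genes. Of all protein-coding genes, 0.148% had a match in the 5′ untranslated region, 0.635% in the coding region and 0.594% in the 3′ untranslated region. Each sequence of 29 bases is from the GENCODE transcripts of GRCm38, in DNA letters, with the loop in capitals. The sites lie at chr19:9982732-9982760 (+ strand) for Fth1, chr7:45459779-45459807 (− strand) for Ftl1 and chr1:45925465-45925493 (− strand) for Slc40a1.
Fth1: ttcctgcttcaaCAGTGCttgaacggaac
Ftl1: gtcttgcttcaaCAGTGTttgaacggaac
Slc40a1: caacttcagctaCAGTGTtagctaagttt
The 3′ untranslated region of Tfrc held 4 matches within 508 bases, on the + strand of chr16 at chr16:32631219-32631247, chr16:32631598-32631626, chr16:32631663-32631691 and chr16:32631710-32631738.
Tfrc, the first: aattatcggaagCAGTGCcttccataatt
Tfrc, the second: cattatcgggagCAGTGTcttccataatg
Tfrc, the third: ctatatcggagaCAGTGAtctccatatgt
Tfrc, the fourth: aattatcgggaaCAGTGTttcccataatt
The remaining 6 genes had no match with these letters in their protein-coding transcripts, which says nothing about other forms of the element.

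**Figure D1:**
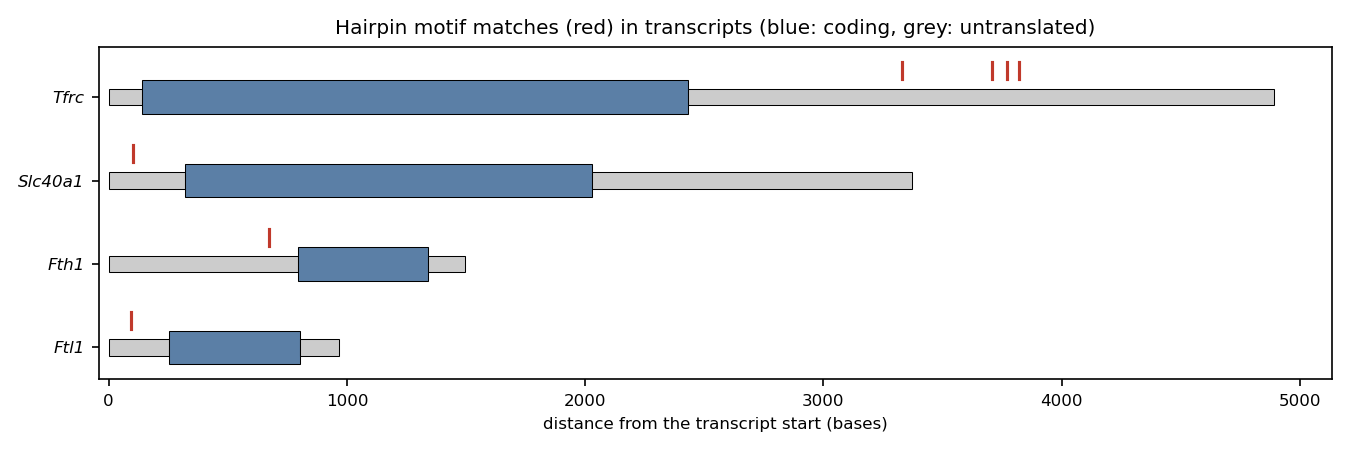
Positions of the hairpin matches (red ticks) along 1 annotated transcript each of Tfrc, Slc40a1, Fth1 and Ftl1, in bases from the transcript start; blue boxes are coding and grey boxes untranslated. The 3 matches of Slc40a1, Fth1 and Ftl1 precede the coding part, and the 4 of Tfrc follow it.

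Libraries held 14286474 to 16915755 normalized counts and 19760 to 21960 genes above 0, and log2 values correlated between libraries at 0.921 to 0.966. Siglecf, which defined the sort, lay between 6884 and 8594 normalized counts in every library, and of 8 eosinophil genes 4 were lower in α4β7− CD22− and 7 in CD22+ than in α4β7+. Markers of cells that handle much iron were present in all subsets, in part at the levels of the iron genes (Csf1r, a macrophage gene, held 1230 to 1980 normalized counts). The summed level of 13 macrophage and monocyte genes was 2664 to 3086 in α4β7+, 2230 to 2929 in the α4β7− CD22− subset and 1932 to 3562 in CD22+, and that of 12 enterocyte genes 3134 to 7259, 2143 to 4752 and 1372 to 7883. The 7 erythroid genes of the table summed to 284.9 to 488.6, 304.1 to 521.7 and 288.2 to 667.6. A test was possible for all genes of the first 2 lists, 4 of the 7 erythroid genes, 3 of the 5 Paneth and goblet cell genes and all 5 B and plasma cell genes, as the others were under the minimum level. None of those tested was called in any of the 3 comparisons, while 2 of 4 T cell genes were lower in α4β7− CD22− than in α4β7+. The sum of the neutrophil list was almost all Retnlg, with its other genes given beside Slc11a1, and up to 2 of its 3 tested genes were called lower in a comparison.

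Per kilobase of transcript, averaged over the 12 libraries, Fth1 was highest at 28126 normalized counts, followed by Ftl1 at 9949, Slc40a1 at 1245, Ncoa4 at 731, Tfrc at 368, Ireb2 at 249, Slc11a1 at 187, Aco1 at 85.3, Hmox1 at 42.3 and Slc11a2 at 32.9. The first 4 ranks were separated, as the libraries of Fth1, Ftl1 and Slc40a1 did not overlap those of the next gene. From Ncoa4 downward, the ranges of neighboring genes over the 12 libraries overlapped, and part of the order changed by subset. By subset mean, Slc11a1 at 399 was above Tfrc at 277 and Ireb2 at 235 in α4β7+, whereas at 92.4 and 70.3 it was below Aco1 at 97.3 and 90.4 in α4β7− CD22− and CD22+. Hmox1 was below Slc11a2 in α4β7+ and above it in the other subsets. Fth1 ranked 21st of all 36047 genes by mean normalized count, without correction for length, and Fth1 with Ftl1 made up 0.256% ± 0.0266 (SD, n = 4) of all normalized counts in the α4β7+ libraries, 0.379% ± 0.0164 in α4β7− CD22− and 0.381% ± 0.0146 in CD22+. Per kilobase, ferritin and ferroportin transcripts were thus above those of both metal transporters, Slc11a1 and Slc11a2, in every library.

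Genes with a mean normalized count above 10 were compared, which kept all 10 iron genes and 15249 genes in all. A gene was called at a limma adjusted p of at most 0.05 (Benjamini-Hochberg) and a fold change of at least 1.5. In α4β7− CD22− against α4β7+, Hmox1 was called higher and Slc11a1 lower, against 3.70% of all genes called higher and 4.35% lower. In CD22+ against α4β7+, Hmox1 and Tfrc were called higher and Slc11a1 and Ncoa4 lower, against 5.60% and 6.39% of all genes. Between CD22+ and α4β7− CD22−, Tfrc was higher and no iron gene was lower, against 0.210% and 0.393%. By the adjusted p with no minimum fold, 5, 5 and 1 of the 10 genes passed, against 14.9%, 21.1% and 1.08% of all genes. The comparisons share libraries and are not independent. Overlap between libraries is described gene by gene below, without its share over all genes, and is no test. The median log2 difference of the 10 genes was 0.195, 0.112 and −0.114, and that of all genes 0.00305, 0.0138 and −0.00144.

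**Figure D2:**
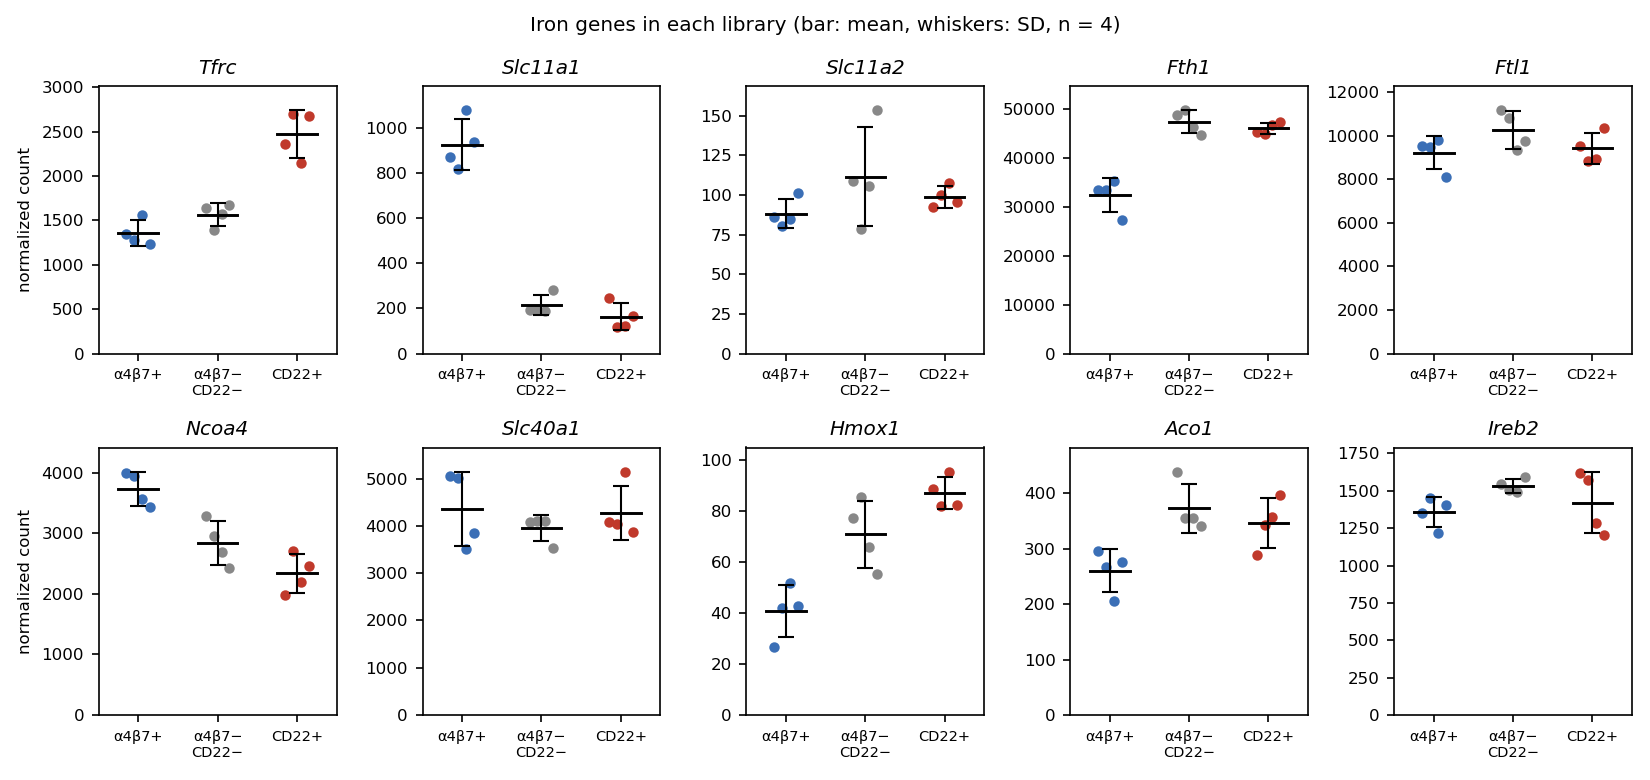
Normalized counts of the 10 iron genes (vertical axes, linear from 0) in each of the 4 libraries of α4β7+ (blue), α4β7− CD22− (grey) and CD22+ (red) eosinophils; bars are means and whiskers SD. The CD22+ libraries lie above all others for Tfrc, and the α4β7+ libraries lie apart from all others for Slc11a1, Fth1, Hmox1 and Ncoa4.

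Tfrc (ENSMUSG00000022797, chr16:32608920-32632794, + strand of GRCm38) encodes transferrin receptor 1, the route by which most cells take up transferrin-bound iron. Its transcript is the one with 4 matches to the hairpin letters in its 3′ untranslated region. It held 1346, 1276, 1565 and 1235 normalized counts in α4β7+ libraries 1 to 4, 1638, 1388, 1567 and 1671 in the α4β7− CD22− subset, and 2364, 2702, 2142 and 2677 in CD22+. All 4 CD22+ libraries exceeded every library of the other subsets, while those of α4β7+ and α4β7− CD22− overlapped. In CD22+, Tfrc was 1.82-fold higher than in α4β7+ (log2 difference 0.87 ± 0.0992, SE; limma adjusted p = 1.51e-05) and 1.57-fold higher than in α4β7− CD22− (0.66 ± 0.0992, adjusted p = 0.00425). The difference between α4β7− CD22− and α4β7+ was 0.21 on the log2 scale (95% interval −0.00186 to 0.42, adjusted p = 0.189). Both calls held under all 22 alternative settings. Tfrc is also among the genes that the study itself names for CD22+ cells, so this is no independent observation. In sorted cells, a change in RNA per cell and a change in the share of cells that express a gene cannot be told apart.

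Slc11a1 (ENSMUSG00000026177, chr1:74375195-74386062, + strand of GRCm38) encodes NRAMP1, a metal transporter of phagosome membranes that is best known from macrophages and neutrophils. It held 869, 817, 1076 and 936 normalized counts in the α4β7+ libraries, 194, 193, 190 and 280 in the α4β7− CD22− subset, and 247, 117, 122 and 165 in CD22+. Every α4β7+ library was above every other library by a wide margin, and the other subsets overlapped. Slc11a1 was 4.34-fold lower in α4β7− CD22− than in α4β7+ (log2 difference −2.12 ± 0.211, adjusted p = 8.23e-06) and 5.88-fold lower in CD22+ (−2.56 ± 0.211, adjusted p = 5.86e-07). Between CD22+ and α4β7− CD22− the difference was −0.44 (95% interval −0.89 to 0.0135, adjusted p = 0.538). The calls against α4β7+ held under all 22 alternatives. No macrophage or monocyte gene was called in these comparisons. C1qa, a complement gene of tissue macrophages, held 122 to 243 in α4β7+, 105 to 301 in the α4β7− CD22− subset and 125 to 388 in CD22+. Csf1r of the same list held 1810 to 1980 in α4β7+, 1483 to 1654 in α4β7− CD22− and 1230 to 1905 in CD22+. Its α4β7+ libraries lay above those of α4β7− CD22− and overlapped those of CD22+. Of the neutrophil list, 3 genes were tested, and Retnlg was called lower in α4β7− CD22−, and Retnlg and S100a9 in CD22+, than in α4β7+. The sum of its 8 genes was 14408 to 22049 normalized counts in α4β7+, 5877 to 7910 for α4β7− CD22−, and 2726 to 3538 for CD22+, nearly all of it Retnlg, which encodes a resistin-like secreted protein (log2 differences from α4β7+ −1.48 and −2.61). Of the other 7 genes of the list, Elane was at 0, and Ly6g, S100a8 and Camp reached at most 10.8, 1.03 and 1.97 in any library. The granule genes Ltf and Mpo and the calcium-binding S100a9 were detected at low levels. Ltf held 15.4, 43.0, 29.0 and 42.9 normalized counts in the α4β7+ libraries, 15.4, 11.8, 8.61 and 39.6 in α4β7− CD22−, and 16.8, 7.34, 16.4 and 13.4 in CD22+. Mpo held 2.38 to 25.9 in α4β7+, 3.54 to 14.5 in α4β7− CD22− and 2.67 to 10.6 in CD22+. The α4β7+ libraries of both genes overlapped those of either other subset, while the α4β7+ libraries of Retnlg overlapped neither. S100a9 held 8.06 to 43.1 in α4β7+ with a median of 12.4, 4.35 to 12.4 in α4β7− CD22− with a median of 10.8, and 0 to 6.37 in CD22+. The α4β7+ and α4β7− CD22− libraries of S100a9 overlapped, while those of α4β7+ and CD22+ did not (log2 difference −2.46, limma adjusted p = 0.0251). The α4β7+ maximum of S100a9 was replicate 1, which stood far above all other libraries and also held the highest Ly6g. Ltf was not called against α4β7+ (limma adjusted p = 0.28 and 0.116), and Mpo was under the minimum level for a test. The parts of macrophage and of neutrophil RNA in the level of Slc11a1 were not tested. A nearly identical copy, Gm4829, held 0.154% of the Slc11a1 level.

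Slc11a2 (ENSMUSG00000023030, chr15:100387898-100425072, − strand of GRCm38) encodes DMT1, which carries iron out of endosomes and, in enterocytes, in from the gut lumen. Its 12 libraries held only 78.2 to 153 normalized counts, with means of 88.2 ± 9.08 in α4β7+, 111 ± 31.1 in the α4β7− CD22− subset and 98.7 ± 6.71 in CD22+ (SD, n = 4). The subsets overlapped, and no difference was called (adjusted p = 0.371, 0.628 and 0.904 in limma, for α4β7− CD22− against α4β7+, CD22+ against α4β7+, and CD22+ against α4β7− CD22−). For CD22+ against α4β7+ the 95% interval of the log2 difference ran from −0.26 to 0.59. The highest library, replicate 4 of α4β7− CD22−, was also the highest of its subset for Epcam, an epithelial surface gene, at 571 normalized counts, and whether this bears on Slc11a2 was not tested. The antisense gene Gm5475 overlaps Slc11a2 at 197 bases and was at 0.984 normalized counts. The kit was stranded, but the setting of the counting for strand is not given in the sources used here.

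Fth1 (ENSMUSG00000024661, chr19:9980598-9985098, + strand of GRCm38) encodes the ferritin heavy chain, which oxidizes iron for storage. It held 33551, 33523, 35225 and 27379 normalized counts in the α4β7+ libraries, 48935, 49799, 46399 and 44791 in the α4β7− CD22− subset, and 45411, 45019, 46751 and 47465 in CD22+. All 8 libraries of the later subsets lay above all 4 of α4β7+, and those subsets overlapped each other. The log2 difference from α4β7+ was 0.56 ± 0.075 for α4β7− CD22− (limma adjusted p = 0.00014), while that of CD22+ was 0.52 ± 0.075 (adjusted p = 0.000144). These are folds of 1.47 and 1.43, so Fth1 passed the adjusted p and missed the minimum fold of 1.5. It was called in both comparisons after quantile normalization (log2 differences 0.67 and 0.74) and, in the first, without α4β7+ replicate 3 (0.60). From α4β7− CD22− to CD22+ the difference was −0.04 (95% interval −0.20 to 0.12). A copy of Fth1 in the table, Gm6977, held 0.00698% of its level.

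Ftl1 (ENSMUSG00000050708, chr7:45457944-45459884, − strand of GRCm38) encodes the ferritin light chain, which forms the shell with the heavy chain. It held 9505, 9469, 9792 and 8095 normalized counts in the α4β7+ libraries, 11161, 10807, 9356 and 9733 in the α4β7− CD22− subset, and 9518, 8836, 8923 and 10372 in CD22+. The 3 subsets overlapped, and the log2 difference from α4β7+ was 0.16 (95% interval −0.0182 to 0.33) in α4β7− CD22− and 0.03 (−0.14 to 0.21) in CD22+, with limma adjusted p = 0.24 and 0.836. The 8 copies of Ftl1 in the table together held 0.735% of its level, and Gm10252 overlaps it on the other strand. The 2 chains stood in a different proportion: Fth1 over Ftl1 was 3.51 ± 0.0918 (SD, n = 4) in α4β7+, 4.64 ± 0.238 in the α4β7− CD22− subset and 4.92 ± 0.302 in CD22+, and the lowest ratio outside α4β7+ (4.38) exceeded the highest within it (3.60).

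Ncoa4 (ENSMUSG00000056234, chr14:32159865-32179855, + strand of GRCm38) encodes the receptor that delivers ferritin to lysosomes, where its iron is released. It held 3998, 3948, 3565 and 3437 normalized counts in the α4β7+ libraries, 3287, 2958, 2689 and 2423 in the α4β7− CD22− subset, and 1986, 2709, 2193 and 2461 in CD22+. The α4β7+ libraries were above all others, and the other subsets overlapped. Ncoa4 was 1.61-fold lower in CD22+ than in α4β7+ (log2 difference −0.68 ± 0.108, adjusted p = 0.000306), a call that held under all 23 alternatives. In α4β7− CD22− the difference from α4β7+ was −0.40 ± 0.108 (adjusted p = 0.0209), which missed the minimum fold, and from there to CD22+ it was −0.28 ± 0.108 (adjusted p = 0.357).

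Counting of Ncoa4 reads is uncertain, since the processed pseudogene Gm6768 shares 99.9% of 1878 bases with it and held 28.0% of its level. Gm6768 held 948 ± 202 normalized counts in the α4β7+ libraries, 847 ± 78.3 in α4β7− CD22− and 701 ± 76.3 in CD22+ (SD, n = 4), and was not called in any comparison (limma adjusted p = 0.589, 0.0529 and 0.594). With both summed, a choice made after seeing the data, Ncoa4 kept its call in CD22+ against α4β7+ (log2 difference −0.63, adjusted p = 0.000153). Relative to the ferritin heavy chain, Ncoa4 over Fth1 was 0.116 ± 0.0104 in α4β7+, 0.0597 ± 0.00549 in the α4β7− CD22− subset and 0.0507 ± 0.00717 in CD22+, and the α4β7+ libraries again did not overlap the others.

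Slc40a1 (ENSMUSG00000025993, chr1:45908068-45926523, − strand of GRCm38) encodes ferroportin, the iron exporter of macrophages and enterocytes. It held 5047, 5005, 3511 and 3854 normalized counts in the α4β7+ libraries, 4087, 4094, 4098 and 3542 in the α4β7− CD22− subset, and 4072, 4033, 5130 and 3877 in CD22+. The subsets overlapped, and the log2 difference from α4β7+ was −0.12 (95% interval −0.38 to 0.14) in α4β7− CD22− and −0.02 (−0.27 to 0.24) in CD22+, with limma adjusted p = 0.57 and 0.947. These intervals leave out a 1.5-fold difference in either direction. CD22+ replicate 3, the highest library for Slc40a1, also had the highest sum of the 12 enterocyte genes (7883 normalized counts). Of the defining genes, Epcam (941) and Fabp2 (428) were highest there. Vil1 was highest in α4β7+ replicate 4 (707, against 698 in CD22+ replicate 3). Alpi was highest in CD22+ replicate 4 (134, against 117 in CD22+ replicate 3). The next highest libraries for Slc40a1, α4β7+ replicates 1 and 2, had the lowest enterocyte sums of their subset (3134 and 4644). The part of epithelial RNA in the level of Slc40a1 was not tested.

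Hmox1 (ENSMUSG00000005413, chr8:75093621-75100589, + strand of GRCm38) encodes heme oxygenase 1, which opens the heme ring and frees its iron, and is widely used as a readout of oxidant and heme exposure. It was low in all libraries, with 26.9, 41.9, 51.8 and 42.6 normalized counts in the α4β7+ libraries, 77.3, 85.5, 66.0 and 55.2 in α4β7− CD22−, and 88.8, 82.1, 95.5 and 82.5 in CD22+. The α4β7+ libraries were below all others, while the other subsets overlapped. Hmox1 was 2.16-fold higher in CD22+ than in α4β7+ (log2 difference 1.11 ± 0.234, adjusted p = 0.00303), which held under all 22 alternatives. It was 1.74-fold higher in α4β7− CD22− (0.80 ± 0.234, adjusted p = 0.0317), but 6 of the 12 fits that left out a library lost this call: those without α4β7+ replicates 1, 2 or 4 (adjusted p = 0.0832, 0.0517 and 0.0502) and without α4β7− CD22− replicates 1, 2 or 3 (0.0794, 0.0973 and 0.0552). Between the later subsets the difference was 0.31 ± 0.234 (adjusted p = 0.774). None of the macrophage and monocyte genes was called in these comparisons, and their part in the level of Hmox1 was not tested.

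Aco1 (ENSMUSG00000028405, chr4:40143081-40198338, + strand of GRCm38) and Ireb2 (ENSMUSG00000032293, chr9:54863789-54912530, + strand of GRCm38) encode the iron regulatory proteins 1 and 2, which bind the hairpins shown above. Aco1 held 295, 267, 205 and 276 normalized counts in the α4β7+ libraries, 439, 356, 355 and 342 in the α4β7− CD22− subset, and 288, 343, 357 and 397 in CD22+. Its α4β7− CD22− libraries lay above those of α4β7+, with a log2 difference of 0.52 ± 0.142 (adjusted p = 0.0227) that missed the minimum fold, and CD22+ overlapped both (0.41 ± 0.142 against α4β7+, adjusted p = 0.0528). Ireb2 held 1349, 1450, 1217 and 1408 in α4β7+, 1544, 1504, 1491 and 1592 in the α4β7− CD22− subset, and 1619, 1573, 1285 and 1205 in CD22+. Although its α4β7− CD22− libraries did not overlap α4β7+, no difference of Ireb2 was called (log2 difference 0.18 ± 0.0983, adjusted p = 0.268, and 0.06 ± 0.0983, adjusted p = 0.741, in CD22+ against α4β7+).

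**Figure D3:**
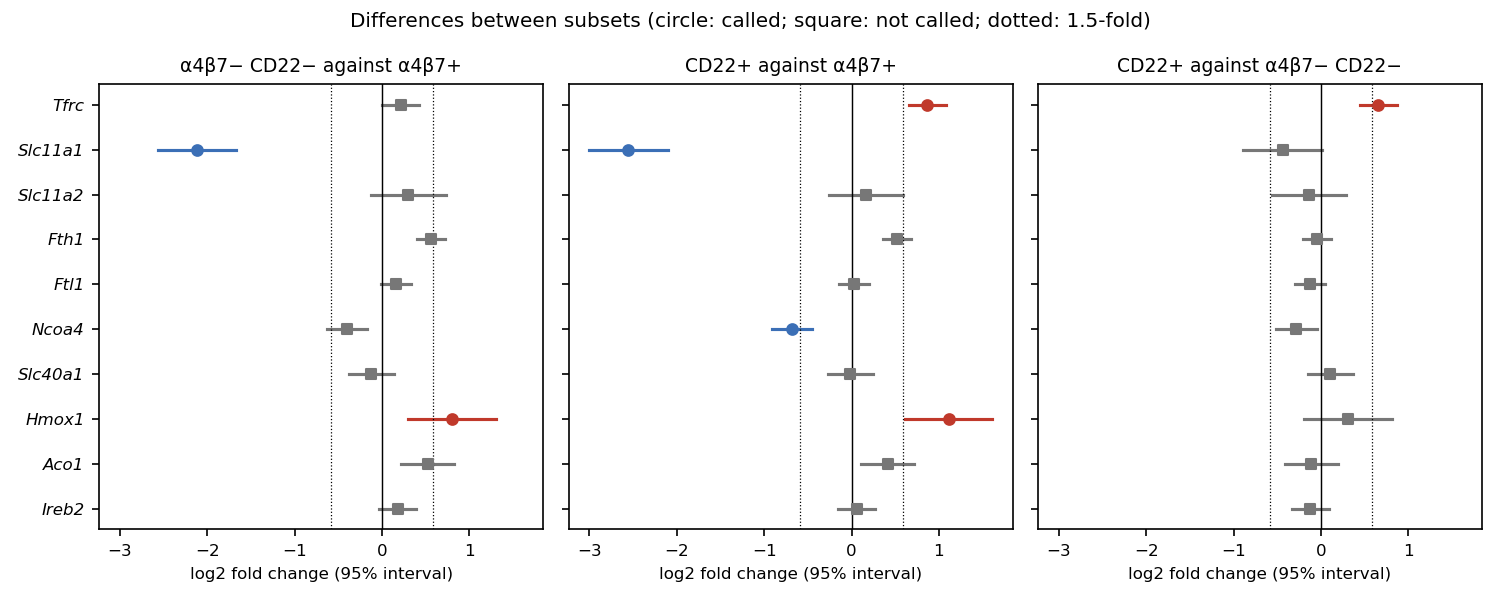
Log2 fold change (horizontal axis) with its 95% interval from limma for the 10 iron genes in the 3 comparisons; circles are called (red higher, blue lower), grey squares are not, and dotted lines mark 1.5-fold. Slc11a1 lies farthest from 0 in both comparisons with α4β7+, and Tfrc is the sole gene called between CD22+ and α4β7− CD22−.

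Whether a gene moved by a different amount between α4β7− CD22− and CD22+ than between α4β7+ and α4β7− CD22− was tested as a contrast of the 2 steps. Slc11a1 was called (second step minus first step 1.68 ± 0.365 on the log2 scale, limma adjusted p = 0.0383), as was Fth1 (−0.60 ± 0.13, adjusted p = 0.0389), so the later step of each was smaller than the earlier. Over all genes 0.544% were called with a positive and 0.636% with a negative value, and 1.23% passed the adjusted p, which 2 of the 10 genes did. Tfrc, which was called in the later step and not in the earlier, did not pass this test (0.44 ± 0.172, adjusted p = 0.282), and a difference between its steps is therefore not shown. Both estimates kept their size under the alternatives (−0.65 to −0.52 for Fth1 and 1.46 to 1.95 for Slc11a1), but the adjusted p, and for Fth1 also the fold, lay close to the threshold. Fth1 lost its call when any 1 of the 8 libraries of α4β7− CD22− and CD22+ was left out (adjusted p = 0.0563 to 0.14) and without α4β7+ replicate 4 (−0.52, under the minimum fold). Slc11a1 lost it without α4β7+ replicates 1, 3 or 4 (0.0541, 0.0666 and 0.0661), α4β7− CD22− replicates 1, 2 or 3 (0.128, 0.124 and 0.122) or CD22+ replicate 4 (0.0679).

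**Figure D4:**
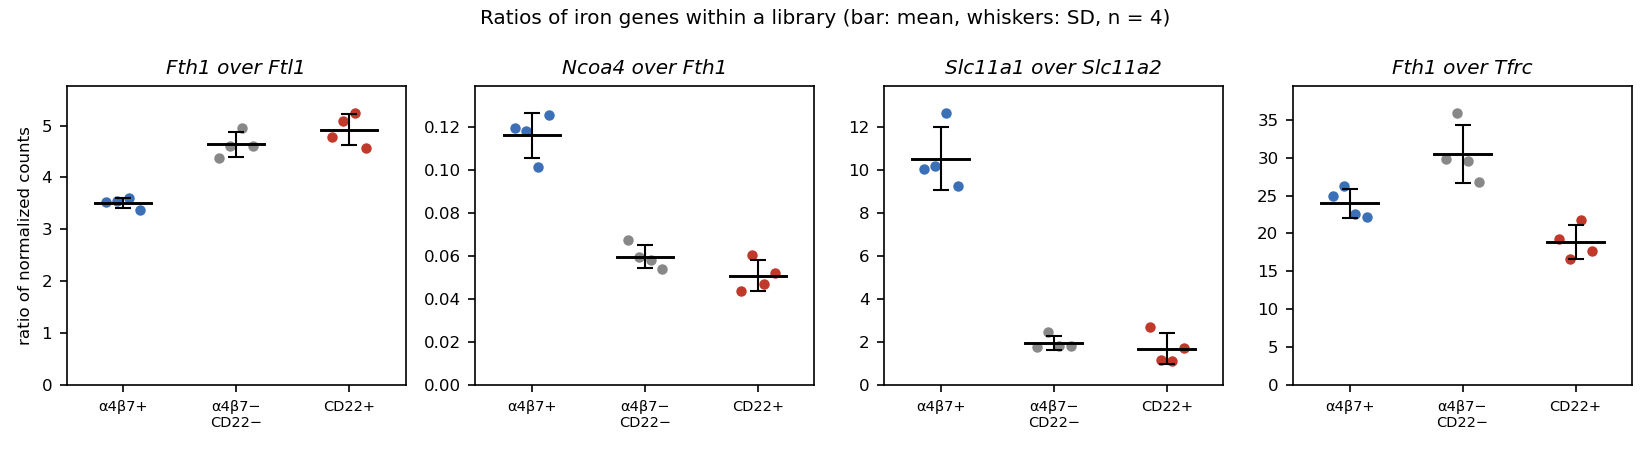
Ratios of normalized counts within each library (vertical axes, linear from 0) for 4 pairs of iron genes, with 4 libraries per subset, means (bars) and SD (whiskers). Fth1 over Ftl1 is lowest, and Ncoa4 over Fth1 and Slc11a1 over Slc11a2 are highest, in the 4 α4β7+ libraries; Fth1 over Tfrc is lowest in CD22+.

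Within a library, the ratio of storage to uptake transcripts did not follow a single direction. Fth1 over Tfrc was 24.0 ± 1.97 in α4β7+, 30.5 ± 3.82 in the α4β7− CD22− subset and 18.9 ± 2.24 in CD22+ (SD, n = 4), and each subset's libraries were separate from those of the others. Slc11a1 over Slc11a2 was 10.5 ± 1.47, 1.97 ± 0.332 and 1.68 ± 0.722, so the phagosomal transporter exceeded the endosomal one in every library. Tfrc over Slc40a1 was 0.322 ± 0.0873, 0.398 ± 0.0553 and 0.59 ± 0.124, with overlap between each pair of subsets. Ireb2 over Aco1 was 5.26 ± 0.574, 4.15 ± 0.472 and 4.21 ± 1.14, also with overlap. These ratios compare normalized counts without correction for length and describe the values given above, without a test.

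Across the 12 libraries, the gene whose log2 level was most like that of Tfrc among 9169 genes with a mean of at least 100 was Ace, angiotensin-converting enzyme (Pearson r = 0.946), followed by A730008H23Rik (0.941) and Stra6l (0.936). Ace averaged 192, 432 and 1954 normalized counts in the α4β7+ libraries, α4β7− CD22− and CD22+. For Slc11a1 they were Pglyrp1, a peptidoglycan-binding protein (0.974), Tgfbi (0.972) and Olr1, a scavenger receptor (0.970), all highest in α4β7+. Those most like Hmox1 were Mgat4a (0.949), the thiamine transporter Slc19a2 (0.941) and the cytokine Clcf1 (0.941), and those most like Ncoa4 were Kctd20 (0.959), Pheta2 (0.949) and Vat1 (0.947). Among the 10 genes, Fth1 and Slc11a1 were the most opposed pair (r = −0.899) and Fth1 and Hmox1 the most alike (0.822). All of these values include the differences between the subsets and describe 12 points that share 3 subsets.

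The wider set held 96 further iron and heme genes, of which 82 were tested. Its lists were chosen with earlier results of these data known, so the shares called may reflect that choice. In α4β7− CD22− against α4β7+, 1 was called higher (1.22%, against 3.70% of all genes) and 2 lower (2.44%, against 4.35%). In CD22+ against α4β7+ 3 were called higher (3.66%, against 5.60%) and 5 lower (6.10%, against 6.39%), a share of lower genes near that of all genes. In CD22+ against α4β7− CD22− none was called by limma (all genes 0.210% and 0.393%), although Zfp36 passed the adjusted p. The median log2 difference of the list was −0.0477, −0.0123 and −0.0008. None of the 82 genes was called for the difference between the steps. Some calls changed when a library was left out. In CD22+ against α4β7+, 5 of the 8 genes were still called without α4β7+ replicate 1 (Blvrb, Hfe and Slc25a37 lost), replicate 2 (Ndor1, Trf and Tspo lost) or replicate 3 (Hfe, Slc25a37 and Trf lost), and 7 without replicate 4 (Slc25a37 lost). Of the CD22+ libraries, leaving out replicate 1 lost Blvrb, Hfe and Trf, replicate 2 Blvrb, Slc25a37, Trf and Tspo, replicate 3 Tspo, and replicate 4 Hfe, Slc25a37 and Trf. In the first comparison the 3 genes were called in all 12 of these fits, and 2 more were called without α4β7+ replicate 4. Zfp36 was called between CD22+ and α4β7− CD22− without CD22+ replicate 2.

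Among genes of uptake, Hfe, whose protein binds the transferrin receptor, was higher in both later subsets. It held 91.3, 128, 104 and 144 normalized counts in the α4β7+ libraries, 351, 198, 181 and 194 in the α4β7− CD22− subset, and 219, 169, 173 and 212 in CD22+, with no overlap between α4β7+ and the others. Hfe was 1.92-fold higher for α4β7− CD22− (limma adjusted p = 0.00816), and for CD22+ 1.66-fold higher (adjusted p = 0.0246). Trf, transferrin itself, was 1.69-fold higher in CD22+ than in α4β7+ (adjusted p = 0.0315), with libraries of 182 to 343 against 120 to 203 that overlapped. Of the 15 uptake genes tested, 6.67% were thus called higher in α4β7− CD22− (all genes 3.70%) and 13.3% in CD22+ (all genes 5.60%), and the other 13 were not called in any comparison.

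In the heme list, 18 genes were tested and 2 were lower in CD22+ than in α4β7+ (11.1%, against 6.39% of all genes). Blvrb, a biliverdin reductase, was 2.17-fold lower (limma adjusted p = 0.0182). Tspo, a porphyrin-binding protein of the outer mitochondrial membrane, was 1.76-fold lower (adjusted p = 0.0243). The libraries of both overlapped between the subsets. Blvra, also a biliverdin reductase, was not called in CD22+ against α4β7+ (log2 difference 0.06). Of 29 genes of mitochondrial iron and iron-sulfur clusters, 1 was lower and 1 higher in CD22+ (3.45% each, against 6.39% and 5.60% of all genes): Slc25a37 (mitoferrin 1) was 1.66-fold lower in CD22+ (adjusted p = 0.0369) and Ndor1, a reductase of cytosolic iron-sulfur cluster assembly, 1.54-fold higher (adjusted p = 0.0147). A further row with the symbol Ndor1 was at 0 in 8 of the 12 libraries and was not tested. The 4 export genes and the 5 genes of storage and ferritin turnover that were tested were not called. The most abundant of the genes not called were Herc2, a ubiquitin ligase of NCOA4 (log2 difference 0.01 in CD22+ against α4β7+), Hif1a and Pcbp2, an iron chaperone (−0.16). Hif1a, a transcription factor of oxygen and iron sensing, passed the adjusted p but not the minimum fold (−0.42 ± 0.0669, adjusted p = 0.000357).

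Of 11 regulators tested, Zfp36 and Zfp36l2 were lower in both later subsets (18.2%, against 4.35% of all genes in α4β7− CD22− and 6.39% in CD22+). They encode RNA-binding proteins that hasten the decay of mRNAs with AU-rich elements, a role not limited to iron. The list was chosen with earlier results of these data known, which may bear on the share called. Zfp36 held 27592 to 34888 normalized counts in the α4β7+ libraries, 12577 to 14842 in the α4β7− CD22− subset and 9119 to 11558 in CD22+, with no overlap between the subsets. It was 2.11-fold lower in α4β7− CD22− than in α4β7+ (adjusted p = 2.23e-06) and 3.02-fold lower in CD22+ (adjusted p = 1.55e-08), and the difference of −0.52 between CD22+ and α4β7− CD22− (adjusted p = 0.0133) missed the minimum fold. Zfp36l2 was 1.63-fold and 1.78-fold lower than in α4β7+ (adjusted p = 0.00032 and 3.93e-05).

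Hmox1 and the ferritin genes are targets of the oxidant-responsive factors NRF2 and BACH1, so 18 other reported targets were counted beside them. None was called higher in any of the 3 comparisons, whereas 1 was lower in α4β7− CD22− (Nqo1; 5.56%, against 4.35% of all genes) and 3 in CD22+ (Blvrb, Nqo1 and Taldo1; 16.7%, against 6.39%) than in α4β7+. Nqo1 and Taldo1 are named here after their values were seen, and the list was chosen with earlier results of these data known. The median log2 difference of the 18 was −0.159 in α4β7− CD22− and −0.284 in CD22+ against α4β7+, and that of all genes 0.00305 and 0.0138. A difference between Hmox1 and the list was not tested.

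**Figure D5:**
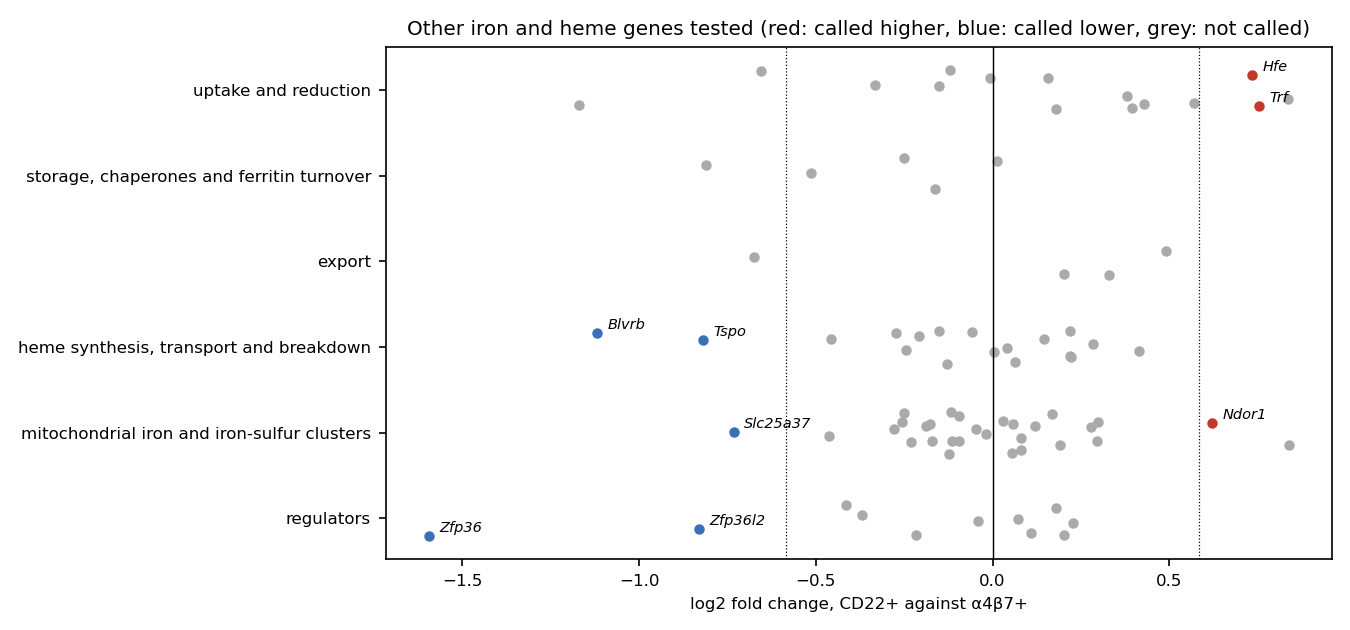
Log2 fold change in CD22+ against α4β7+ (horizontal axis) of the 82 further iron and heme genes tested, by function (vertical axis); each point is a gene, red called higher, blue called lower, grey not called, and dotted lines mark 1.5-fold. Most points lie within the dotted lines, and 8 genes are called, with Zfp36 farthest from 0.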

How the data were processed

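RNA sequencing of 12 libraries, 4 per eosinophil subset, was analyzed. The authors trimmed the reads with Trimmomatic 0.39, pseudoaligned them to mm10 (GRCm38) with kallisto 0.46.1, and normalized the estimated counts with DESeq2 1.38.2, per the submitters' processing notes and the study's methods. The deposited values are these normalized counts, a signal that is not whole: 30.6% to 64.6% of low values per library lay within 5% of whole reads, so tests for counts were not used. Whether the authors' scaling also varied by gene is not given in the sources used here. A floor of 3 reads corresponded to about 2.56 to 3.48 normalized counts, counting error only, and all values of the 10 genes were above it.

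The 10 genes and all lists were chosen with earlier results of these data known. limma 3.58.1 (R 4.3.3), with a trend of variance on mean, was fitted to log2(normalized count + 1) of 15249 genes with all 12 libraries, and adjusted p-values (Benjamini-Hochberg) cover all genes. Fold changes are on this scale, which understates those of low genes. Whole counts were simulated for CD22+ against α4β7+ in 15159 genes, with independent libraries and the same assumed spread beyond counting error for every gene. Of 97 genes changed by 1 log2 unit, 82.5% were called, as were 4 of 14963 unchanged genes. The assumed spread was not taken from the data, so these shares do not give the power or error of the fits here. The genes named are all 10, every called gene of the wider iron list and its 3 most abundant others, the defining markers, and the 3 genes most like each called member.

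Sequences and positions are from GENCODE vM21, which matched 35968 of 36047 identifiers. Transcripts were compared by BLAST 2.17.0 (at least 90% identity over 200 bases). Lengths per kilobase are those of 1 principal transcript per gene. Replicate numbers are from the sample titles. Deviations from the subset means correlated between same-numbered libraries of CD22+ and α4β7− CD22− at 0.135, 0.161, 0.177 and 0.203. These correlations ran from 0.043 to 0.137 for α4β7− CD22− with α4β7+, and from −0.0586 to 0.182 for CD22+ with α4β7+. The main fits were unpaired. An alternative fit took the numbers of all subsets as a replicate block, from the data and not from any stated design. With the replicate block Tfrc kept its call between these subsets (limma adjusted p = 0.0155). The alternatives were other pseudocounts, filters, scalings, tests and thresholds, a model of 2 subsets, the block and leaving out each library. Python 3.11.15, pandas 2.3.3 and matplotlib 3.10.9 were used. Protein sequences were not used here.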

Additional observations from a re-analysis of the deposited data

Results flagged for a closer look

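Within the 30 groups of 4 libraries formed by 10 genes and 3 subsets, the extreme library of 4 groups lay farther from the others than Dixon's 95% critical value for the gap over the range. Chance alone gives about 1 in 20 groups. In α4β7− CD22− replicate 4, Slc11a1 was at 280 normalized counts (gap over range 0.957), above 194, 193 and 190 in the other libraries and still below every α4β7+ library. In the same library Slc40a1 was at 3542 (0.981), below 4087, 4094 and 4098. CD22+ replicate 3 held 5130 normalized counts of Slc40a1 (0.844), above 4072, 4033 and 3877. Aco1 was at 439 (0.856) in α4β7− CD22− replicate 1, above 356, 355 and 342.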

How the results depend on the processing

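For the 10 genes, 847 of 882 values under alternative settings were called or not called as in the report, 28 were no longer called, 7 became called, and none that was called changed sign. Tfrc in both comparisons with CD22+, Slc11a1 in both with α4β7+, and Hmox1 and Ncoa4 in CD22+ against α4β7+ were called under every alternative.

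In α4β7− CD22− against α4β7+, the 2 iron genes called became 1 without a filter on low values, 1 in a model of only these subsets, 5 by the adjusted p alone, and 1 to 3 when a library was left out. The gene lost was Hmox1 (adjusted p = 0.0637 without the filter and 0.0771 in the model of 2 subsets). For the difference between the steps, the 2 calls became 1 without a filter, 1 after quantile normalization, 0 without the variance trend and 0 to 2 when a library was left out. By the adjusted p alone, the wider list had 8 calls in place of 3, 14 in place of 8, and 1 in place of 0. With a library left out it had 3 to 5, 4 to 8, and 0 to 1, and 0 to 1 for the difference between the steps. The causes were not tested.

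In the fit with a replicate block, 2, 4 and 1 of the 10 genes and 4, 8 and 0 of the wider list were called in the 3 comparisons, and no call of the 10 genes changed. Same-numbered libraries correlated best with each other in 8 of 8 cases for CD22+ with α4β7− CD22−, 6 of 8 for α4β7− CD22− with α4β7+ and 4 of 8 for CD22+ with α4β7+, and whether same-numbered libraries came from the same mice is not given in the sources used here. Other scalings moved the median of all genes by less than 0.1 on the log2 scale. Hmox1 and Slc11a2 had the lowest mean levels of the 10 genes, with 26.9 to 95.5 and 78.2 to 153 normalized counts. An effect of depth on them was not tested.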
